A study of Mus musculus with 48 samples.

Results

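Rpl22 and Rpl22l1 were chosen by their symbols and are 2 of the 24060 rows of a gene count table from mouse striatum. Rpl22 encodes the ribosomal protein that carried the hemagglutinin tag in the study's RiboTag method, in which tagged ribosomes of 1 cell type are precipitated from a tissue lysate together with the RNA bound to them. Rpl22l1 is its paralog and carried no tag by the labels. Rpl22 is a protein of the large ribosomal subunit that binds RNA and is not needed for bulk translation in mice. Rpl22l1 can take its place in the ribosome, and mouse cells that lack Rpl22 are known to make more Rpl22l1.

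An adeno-associated virus expressed Rpl22-HA in striatal astrocytes of adult mice (strain label C57) for 3 weeks, and all 48 libraries came from tissue that had received it. Each of 24 replicates gave 1 library of RNA precipitated with the tag (IP) and 1 of whole lysate RNA (input), in 12 groups of 4 libraries. The 3 experiments compared MPTP (20 mg/kg, 4 doses), a toxin that kills dopamine neurons, with vehicle, SAPAP3 knockout mice, which lack a postsynaptic scaffold, with wild-type littermates, and hM4Di, an engineered Gi-coupled receptor, with a control cargo in R6/2 mice, which model Huntington's disease. Animals, genotype, delivered viruses and the project number in the titles all differ between experiments and cannot be told apart there.

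Several labels limit what the groups stand for. No promoter is named for the RiboTag virus. MPTP and vehicle are labelled as given into the striatum, yet the dose is stated per kg, and the route is therefore unclear. The design text speaks of an activated Gi pathway in the R6/2 astrocytes, but no label states an agonist for hM4Di or its timing in these animals. The titles of MPTP replicate 2 name different animals for IP and input, and wild-type replicate 3 has a title that could stand for a pair of mice. The design text counts 24 mice, 1 for each replicate. Tests within 1 fraction use 1 library per mouse, so their p-values measure the spread between mice. Tests that join IP and input treat the libraries of a mouse as separate samples, except where the mouse is a block.

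In the mm10 assembly with GENCODE M21 models, Rpl22 lies at chr4:152325742-152334071 on the plus strand, with 8 annotated transcripts and a coding sequence of 387 bases (stop included) in a transcript of 4 exons. Rpl22l1 lies at chr3:28805436-28807424 on the plus strand, with 9 transcripts and a coding sequence of 369 bases, also in 4 exons. The coding sequences share 259 of 369 aligned bases (70.19%), and their longest identical run is 26 bases. The stretch of 90 aligned bases where the paralogs are most alike is printed here because it shows how far their reads can be told apart. Capitals mark the 73 bases that are identical, and positions are counted from the first base of the start codon, 219 to 308 in Rpl22 and 201 to 290 in Rpl22l1.
Rpl22: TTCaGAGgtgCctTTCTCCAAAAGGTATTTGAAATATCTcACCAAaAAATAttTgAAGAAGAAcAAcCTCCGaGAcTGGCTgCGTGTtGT
Rpl22l1: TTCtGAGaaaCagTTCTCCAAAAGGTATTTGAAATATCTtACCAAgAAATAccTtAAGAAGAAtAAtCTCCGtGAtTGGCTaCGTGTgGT
Even here the differences are spread along the stretch, and 0 of the 338 words of 50 bases in the Rpl22 coding sequence occur in that of Rpl22l1.

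Other copies are closer. The processed pseudogene Rpl22-ps1 (chrX:8038611-8038996, minus strand) matches 366 of 377 aligned bases of the Rpl22 coding sequence (97.08%). The following 90 bases, positions 88 to 177 of the Rpl22 coding sequence, are the same in both, and capitals mark identical bases.
Rpl22: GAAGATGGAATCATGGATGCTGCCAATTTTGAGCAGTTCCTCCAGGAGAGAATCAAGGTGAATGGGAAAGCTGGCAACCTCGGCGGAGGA
Of all 50-base words in the coding sequences, 104 of 338 in Rpl22 (30.77%) and 262 of 320 in Rpl22l1 (81.88%) also occur in transcripts of other annotated genes. Reads from such words could be split or lost in counting, so the levels of both genes, and of Rpl22l1 above all, are uncertain by an amount that was not tested. Of those 7 other genes, only Gm15421 has a row of counts. Words outside the coding sequences were not examined. The table gives 1 Rpl22 value per library, in which reads of the virus-delivered copy and of the mouse's own gene cannot be told apart.

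Libraries held 34.3 to 61.5 M counted reads in IP (median 47.1 M) and 21.9 to 39.0 M in input (median 29.5 M). All 10 astrocyte markers were higher in IP by more than 2-fold in each experiment and all 10 microglial markers lower by more than 2-fold, under edgeR's quasi-likelihood test and Benjamini-Hochberg adjustment. Of 7 endothelial and mural markers 6 were lower in each experiment, and all 7 tested medium spiny neuron markers were lower, while 3 of 4 interneuron markers were higher. Oligodendrocyte precursor markers moved differently by experiment, with 2 of 3 higher and 1 lower in the MPTP experiment, 3 higher in the SAPAP3 experiment and 3 lower in the R6/2 experiment. Of 6 oligodendrocyte markers 2 were higher and 2 lower in the MPTP and in the R6/2 experiment and 4 were higher in the SAPAP3 experiment. Their sums there did not overlap between fractions, at 6806 to 9730 CPM in knockout IP and 5435 to 5618 CPM in knockout input, and 7299 to 10735 CPM in wild-type IP and 5192 to 6194 CPM in wild-type input. Of 4 pan-neuronal markers 2 were higher and 2 lower in the MPTP and in the R6/2 experiment, and 1 was higher and 3 lower in the SAPAP3 experiment. The part of these markers in the results was not tested. Of all genes tested, 40.7%, 40.3% and 39.3% were called higher in IP in the MPTP, SAPAP3 and R6/2 experiments, and 42.9%, 40.0% and 41.1% lower. The oligodendrocyte and pan-neuronal counts of the MPTP and R6/2 experiments lie near those shares. The share of all genes that differed by more than 2-fold was not worked out. Among 72 pairs of libraries of the same group, none agreed within sampling noise (chi-square per degree of freedom 3.88 to 87.2).

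Rpl22 was much higher in the precipitate than in the lysate of the same replicate, in 24 of 24 replicates, and its paralog was lower in 24 of 24. Values are CPM, read counts scaled to the library size after TMM normalization. In the MPTP experiment, Rpl22 stood at 1865, 1668, 1199 and 1429 CPM in MPTP IP libraries and 1474, 1481, 1882 and 1721 CPM in vehicle IP libraries. The inputs of that experiment had 415, 303, 284 and 335 CPM with MPTP and 251, 335, 347 and 286 CPM with vehicle. The lowest IP library was thus well above the highest input library there, while MPTP and vehicle overlapped in each fraction. In the SAPAP3 experiment, Rpl22 was at 746, 1367, 859 and 544 CPM in knockout IP and 775, 1923, 857 and 884 CPM in wild-type IP. The inputs had 119, 132, 122 and 108 CPM in knockout tissue and 178, 227, 119 and 141 CPM in wild-type tissue. Knockout replicate 2 and wild-type replicate 2 were the high IP libraries, and IP and input again did not overlap.

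The R6/2 experiment had the lowest Rpl22 levels. The hM4Di IP libraries held 271, 230, 293 and 267 CPM, and the control cargo IP libraries 570, 292, 607 and 647 CPM. Their inputs held 86.5, 81.6, 94.5 and 91.0 CPM with hM4Di and 114, 93.4, 110 and 121 CPM with the control cargo. Control cargo replicate 2 was the low library of its group in IP, at the level of the hM4Di libraries, and was also the lowest of its group in input.

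**Figure D1:**
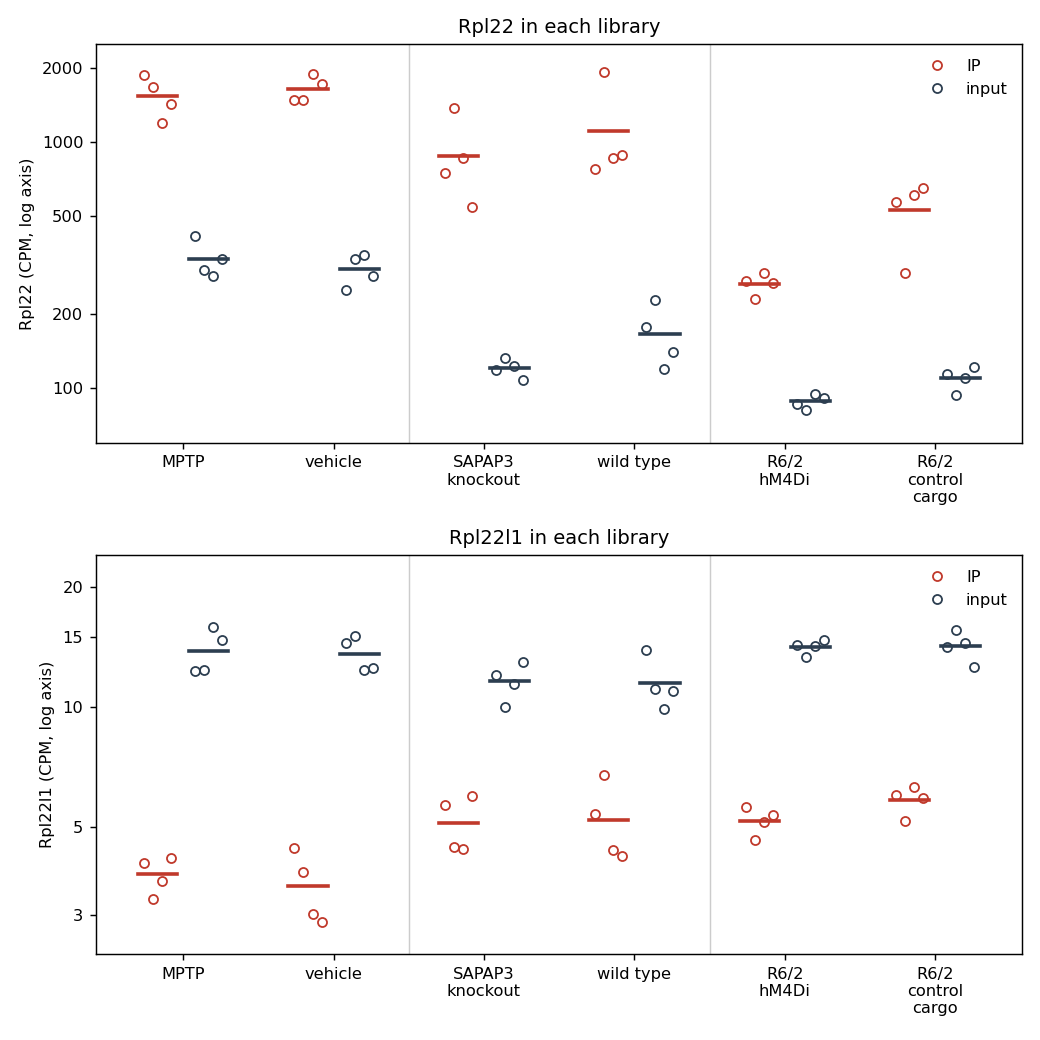
Rpl22 (top) and Rpl22l1 (bottom) in CPM on a log axis in all 48 libraries, by condition, with IP left of input in each condition; circles are libraries and bars are means of 4. Rpl22 was higher in IP than in input in 24 of 24 replicates and fell off across experiments, to 265 ± 26.3 CPM in hM4Di IP, and Rpl22l1 was lower in IP in 24 of 24.

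Relative to input, Rpl22 rose by 2.26 ± 0.107 on the log2 scale in the MPTP experiment (± SE, 8 IP and 8 input libraries; adjusted p = 4.8e-13, edgeR's quasi-likelihood test and Benjamini-Hochberg adjustment). In the SAPAP3 experiment it rose by 2.80 ± 0.215 (adjusted p = 1.9e-09, same test), and in the R6/2 experiment by 1.92 ± 0.152 (adjusted p = 3.1e-09, same test). IP and input differed for most genes: 83.7%, 80.2% and 80.3% of genes tested were called in the 3 experiments, with 40.7%, 40.3% and 39.3% higher in IP and 42.9%, 40.0% and 41.1% lower. The balance of directions depends on scaling. In the MPTP experiment 6460 genes were higher and 6810 lower, against 4546 and 8971 without scaling factors and 13363 and 1314 with ribosomal protein scaling. In the SAPAP3 experiment 6469 were higher and 6418 lower, against 4514 and 8590 without scaling factors and 11515 and 2128 with ribosomal protein scaling. In the R6/2 experiment 6240 were higher and 6519 lower, against 4146 and 8952 without scaling factors and 11250 and 2281 with ribosomal protein scaling. As ratios of CPM within a replicate, the precipitate held between 2.82 and 10.4 times the input level of Rpl22, with a median of 5.19. The astrocyte glutamate transporter gene Slc1a2 had a median ratio of 5.26 over the same 24 replicates (3.91 to 11.6). The microglial fractalkine receptor gene Cx3cr1 had 0.0336 (0.0241 to 0.148). In bulk libraries of this kind, fewer cells of a type and less RNA per cell cannot be told apart.

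Rpl22l1 went the other way. In the MPTP experiment it was at 4.06, 3.29, 3.66 and 4.18 CPM in MPTP IP and 4.44, 3.86, 3.02 and 2.89 CPM in vehicle IP. The inputs had 12.3, 12.4, 15.9 and 14.7 CPM with MPTP and 14.5, 15.03, 12.4 and 12.5 CPM with vehicle. No IP library reached the level of any input library there. In the SAPAP3 experiment the gene had 5.67, 4.46, 4.405 and 5.96 CPM in knockout IP and 5.40, 6.75, 4.38 and 4.23 CPM in wild-type IP. Inputs held 11.997, 10.004, 11.4 and 12.9 CPM in knockout tissue and 13.9, 11.1, 9.87 and 10.9 CPM in wild-type tissue. Fractions did not overlap, and the genotypes did in both fractions. In the R6/2 experiment it had 5.59, 4.64, 5.15 and 5.35 CPM in hM4Di IP and 6.002, 5.18, 6.29 and 5.92 CPM in control cargo IP. The inputs were at 14.2, 13.3, 14.2 and 14.7 CPM with hM4Di and 14.1, 15.6, 14.4 and 12.6 CPM with the control cargo. Rpl22l1 fell by 1.95 ± 0.0913 on the log2 scale in IP relative to input in the MPTP experiment (adjusted p = 3.9e-13), by 1.16 ± 0.106 in the SAPAP3 experiment (adjusted p = 1.9e-08) and by 1.37 ± 0.0608 in the R6/2 experiment (adjusted p = 1.3e-12), under edgeR's quasi-likelihood test and Benjamini-Hochberg adjustment. Scaled to the other ribosomal protein genes, which are themselves lower in IP, the Rpl22l1 values were -0.80, -0.51 and -0.77 and those of Rpl22 3.41, 3.45 and 2.52 in the MPTP, SAPAP3 and R6/2 experiments. Rpl22l1 had 99 to 316 reads per IP library and 301 to 607 per input library, and Rpl22 had 10648 to 78953 and 2311 to 13743.

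Ordered by mean CPM, Rpl22 was highest in vehicle IP (1639 ± 198, SD, n = 4), followed by MPTP IP (1540 ± 289), wild-type IP (1110 ± 544), knockout IP (879 ± 351) and control cargo IP (529 ± 161). MPTP input (334 ± 57.8) and vehicle input (305 ± 44.6) came next, above hM4Di IP (265 ± 26.3). Wild-type input (166 ± 47.5), knockout input (120 ± 9.96), control cargo input (110 ± 11.8) and hM4Di input (88.4 ± 5.59) closed the order. Each neighbouring pair overlapped except hM4Di IP and wild-type input, so the order between neighbours is mostly not resolved by the libraries. For Rpl22l1 the 6 input groups ranked highest, between 14.2 ± 1.25 CPM in control cargo input and 11.4 ± 1.72 in wild-type input, and the 6 IP groups lowest, between 5.85 ± 0.473 in control cargo IP and 3.55 ± 0.728 in vehicle IP. Among neighbours in that order, wild-type input and control cargo IP did not overlap, nor did knockout IP and MPTP IP.

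Levels of different genes were compared on FPKM, in which the authors divided each count by 1 length per gene. That length, worked out from the tables, was 2497 bases for Rpl22, 6.45 times its coding length, and 477 bases for Rpl22l1, 1.29 times its coding length. On this scale Rpl22 averaged 357 FPKM over the 24 IP libraries and ranked 1 of 79 cytosolic ribosomal protein genes, against 81.2 FPKM and rank 20 in input. Its neighbours in input were Rplp0 (98.3 FPKM), Rps20 (93.3) and Rps26 (86.2) above, and Rpl39 (79.4), Rps19 (79.3) and Rpl14 (76.6) below, all of them structural ribosomal proteins. Its rank was 1 in 5 of the 6 IP groups and 8 in hM4Di IP, and between 16 and 28 in the 6 input groups. In input the 79 genes ran from 0.716 FPKM (Rpl26) to 600 FPKM (Rplp1). Words shared with other genes were examined only for Rpl22 and Rpl22l1. Reads lost in counting could differ between the 79 genes, so the ranks are uncertain by an amount that was not tested. The length of the virus-delivered copy was not known here. If it differs from 2497 bases, the FPKM and ranks of Rpl22 carry an error that may differ between IP and input. The size of that error was not tested. Rpl22l1 averaged 9.25 ± 2.27 FPKM in IP and 30.2 ± 4.96 in input (SD, n = 24 each).

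Rpl22 stood apart from the rest of the ribosome. Of the 79 cytosolic ribosomal protein genes, Rpl22 was called higher in IP in each experiment and no other was in any. Of the other 78, 77, 72 and 67 were lower in IP in the MPTP, SAPAP3 and R6/2 experiments, with median log2 fold changes of -1.28, -0.76 and -0.78, beside medians of all genes tested of -0.02, 0.00 and -0.02. More than 2-fold lower were 56, 14 and 15 of them. Of all genes tested 42.9%, 40.0% and 41.1% were called lower at any fold, and the share beyond 2-fold was not worked out. Under relative log expression scaling the numbers lower were again 77, 72 and 67, and with no scaling factor 77, 76 and 74. By mean log2 fold change over the 3 experiments the next genes after Rpl22 were Rpl26 (0.06, 0.21 and 0.48 in the MPTP, SAPAP3 and R6/2 experiments, not called), Rpl18 (-0.40, 0.04 and -0.09) and Rpl15 (-0.30, -0.11 and -0.06). The lowest were Rplp1, a stalk protein (-2.18, -1.45 and -1.48), Rps12 (-1.97, -1.38 and -1.64) and Rps21 (-1.99, -1.20 and -1.37). Rpl22l1, at -1.95, -1.16 and -1.37, was thus within the range of the other ribosomal protein genes in each experiment.

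**Figure D2:**
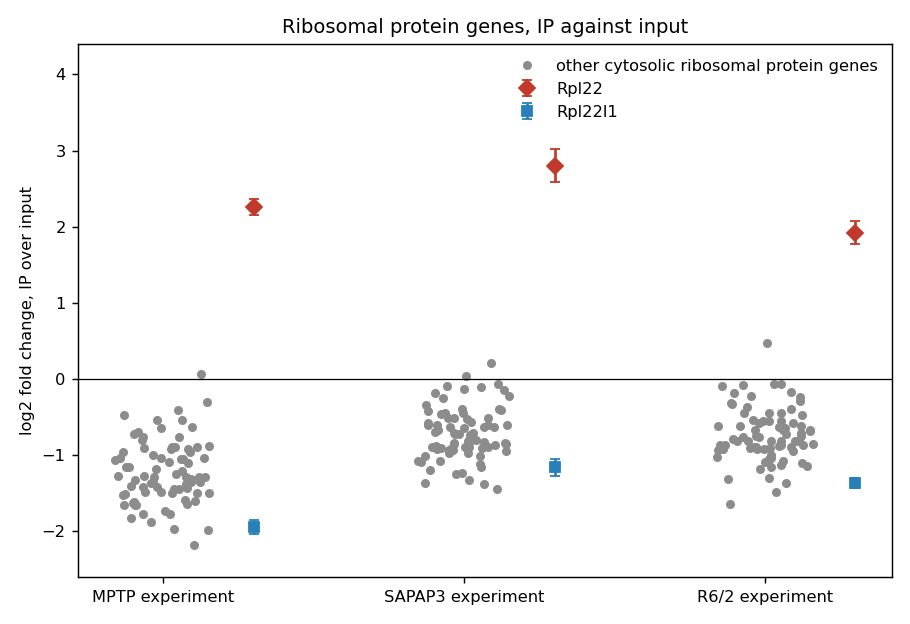
Log2 fold change of IP over input for each cytosolic ribosomal protein gene (grey points), Rpl22 (red diamonds) and Rpl22l1 (blue squares) in the 3 experiments; error bars are SE for Rpl22 and Rpl22l1. Rpl22 lies at 2.26, 2.80 and 1.92, above all other ribosomal protein genes, whose medians are -1.28, -0.76 and -0.78, and Rpl22l1 lies among them.

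The weight of Rpl22 among ribosomal protein reads differed by group. In IP it took 41.3% ± 4.99 of all reads on the 79 genes with MPTP (SD, n = 4) and 42.7% ± 3.87 with vehicle. It took 28.3% ± 9.02 in knockout IP and 32.9% ± 8.22 in wild-type IP, and 10.8% ± 0.738 in hM4Di IP against 20.9% ± 4.95 in control cargo IP. In input the shares were 6.54% with MPTP, 6.32% with vehicle, 3.51% in knockout tissue, 4.59% in wild-type tissue, 2.74% with hM4Di and 3.40% with the control cargo. The same 79 genes took between 0.240% and 0.556% of all reads in the 12 groups. Loss of reads shared with other copies was not examined for the other ribosomal protein genes, and the shares of Rpl22 carry that uncertainty.

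The other paralogs of ribosomal proteins gave mixed results in IP against input. Of 8 listed paralogs, 6, 6 and 5 could be tested in the MPTP, SAPAP3 and R6/2 experiments. Rps27l rose in all 3, by 0.97, 1.47 and 1.35 on the log2 scale, and Rps4l by 0.42, 0.50 and 0.47. Rpl7l1 was at 0.05 (not called) in the MPTP experiment and rose by 0.28 and 0.26 in the SAPAP3 and R6/2 experiments. Rpl36al fell by 0.55 in the MPTP experiment and by 0.15 in the R6/2 experiment and was at -0.12 (not called) in the SAPAP3 experiment. Rpl3l, with 2 to 17 reads a library, fell by 0.95 and 0.76 in the MPTP and SAPAP3 experiments. Rpl10l and Rpl39l had at most 1 and 5 reads in any library and were not tested. Rpl22l1 thus had the lowest fold change of the paralogs tested in each experiment.

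Enrichment of the tagged gene differed between experiments. The log2 IP effect on Rpl22 in the R6/2 experiment minus that in the SAPAP3 experiment was -0.88 ± 0.238 (adjusted p = 0.0054, edgeR's quasi-likelihood test and Benjamini-Hochberg adjustment; 25.2% of genes called, 10.6% higher and 14.6% lower). SAPAP3 minus MPTP was 0.49 ± 0.236 (adjusted p = 0.106; 33.9% of genes called, 15.2% higher and 18.8% lower), and with the mouse as a block it was 0.42 and passed (adjusted p = 0.0337, edgeR's quasi-likelihood test). Scaled to the other ribosomal protein genes it was 0.04 (adjusted p = 0.898, same test). R6/2 minus MPTP was -0.39 ± 0.238 (adjusted p = 0.223; 31.9% of genes called, 11.5% higher and 20.4% lower), and with the mouse as a block it was -0.42 and passed (adjusted p = 0.0383, edgeR's quasi-likelihood test). With ribosomal protein scaling it was -0.89 and passed (adjusted p = 0.000996, same test). The balance of higher and lower calls in these comparisons depends on scaling. With ribosomal protein scaling 147 genes were higher and 10776 lower in SAPAP3 minus MPTP, 204 and 12266 in R6/2 minus MPTP, and 857 and 2575 in R6/2 minus SAPAP3. With upper-quartile scaling the numbers were 3440 and 2553, 3042 and 2358, and 2065 and 1977. For Rpl22l1 the fall in IP was smaller in the SAPAP3 experiment than in the MPTP experiment by 0.73 ± 0.128 on the log2 scale (adjusted p = 1.6e-05, edgeR's quasi-likelihood test), and by 0.29 (adjusted p = 0.014, same test) with ribosomal protein scaling. R6/2 minus MPTP was 0.53 ± 0.127 (adjusted p = 0.0011, same test), but 0.04 (adjusted p = 0.763) when libraries were scaled to the other ribosomal protein genes. R6/2 minus SAPAP3 was -0.20 ± 0.127 for Rpl22l1 and did not pass (adjusted p = 0.247, same test). These differences set whole experiments against each other, with perturbed and control mice pooled. By mouse, the IP minus input difference in Rpl22 averaged 1.58 with hM4Di and 2.21 with the control cargo. It averaged 2.20 with MPTP and 2.43 with vehicle, and 2.79 in knockout and 2.68 in wild-type mice. Differences between the control groups alone were not tested.

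Of the 3 perturbations, hM4Di in R6/2 mice was the 1 in which a member passed the test, and it did so in IP. In hM4Di IP Rpl22 averaged 265 ± 26.3 CPM, against 529 ± 161 CPM in control cargo IP (SD, n = 4 each), a fall of 0.98 ± 0.216 on the log2 scale (adjusted p = 0.0209, edgeR's quasi-likelihood test and Benjamini-Hochberg adjustment). Of all genes tested 14.7% were called there, 9.06% higher and 5.63% lower, or 1374 and 853 genes. That balance depends on scaling, with 1705 higher and 586 lower without scaling factors, 1221 and 1190 with upper-quartile scaling, and 743 and 4031 with ribosomal protein scaling. The groups overlapped by 1 library, control cargo replicate 2 (292 CPM), which lay just under the highest hM4Di library (293 CPM). Without that replicate the difference was -1.19 (adjusted p = 0.0019). Without control cargo replicate 1 it was -0.95 and no longer passed (adjusted p = 0.0576), and without hM4Di replicate 2 it was -0.92 and no longer passed (adjusted p = 0.061), in the same edgeR test.

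In input of the same mice Rpl22 averaged 88.4 ± 5.59 CPM with hM4Di and 110 ± 11.8 CPM with the control cargo. The difference of -0.30 ± 0.0753 did not pass in edgeR's quasi-likelihood test (adjusted p = 0.422; 0.0198% of genes called). It passed in DESeq2 (-0.31, adjusted p = 0.0381). The IP effect minus the input effect was -0.68 ± 0.248 (adjusted p = 0.149, edgeR's quasi-likelihood test; 3.10% of genes called, 1.90% higher and 1.20% lower, or 302 and 190 genes). The numbers higher and lower were 288 and 357 with upper-quartile scaling and 153 and 1051 with ribosomal protein scaling. With the mouse as a block it was -0.64 and passed (adjusted p = 0.0036, edgeR's quasi-likelihood test). Rpl22l1 was at -0.16 ± 0.0941 in hM4Di IP (adjusted p = 0.298) and at 0.00 ± 0.0767 in input (adjusted p = 0.999) relative to the control cargo. Scaled to the other ribosomal protein genes, the IP difference of Rpl22l1 was -0.32 and passed (adjusted p = 0.0356, edgeR's quasi-likelihood test).

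**Figure D3:**
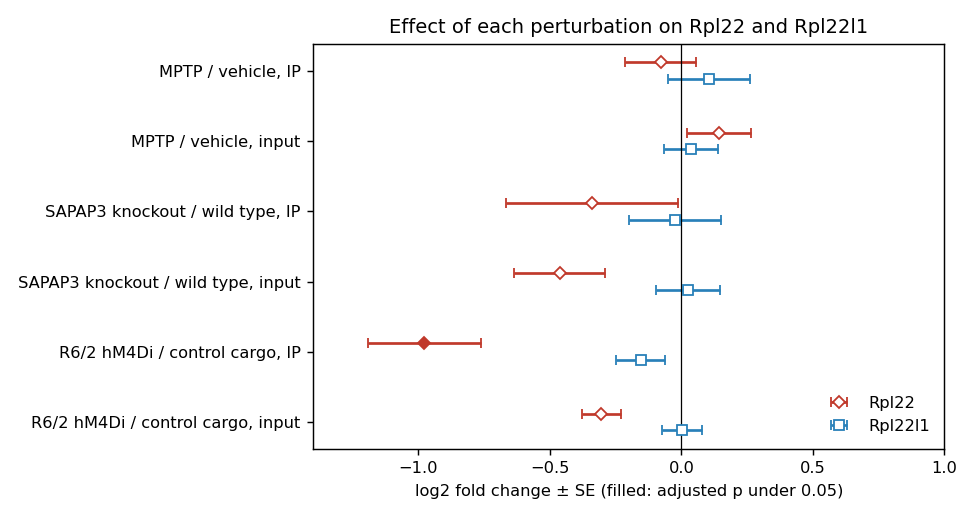
Log2 fold change of each perturbed group over its control for Rpl22 (red diamonds) and Rpl22l1 (blue squares) in IP and input, with SE bars; filled symbols passed an adjusted p of 0.05. Rpl22 in hM4Di IP, at -0.98, is the filled symbol, and the others are open.

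No other gene of the ribosome was called lower with Rpl22 in hM4Di IP. Of the other 78 ribosomal protein genes 14 rose and 0 fell in edgeR's quasi-likelihood test, with a median of 0.13 beside 0.01 over all genes tested. Rps4x rose by 0.33, Rps9 by 0.22 and Rplp1 by 0.28 on the log2 scale. The numbers that rose were 13 under relative log expression scaling and 17 with no scaling factor. None of 5 tested paralogs was called. Of all genes tested in hM4Di IP, 9.06% were called higher and 5.63% lower. Of 6 genes tied to Rpl22 through p53 or reported as its targets, 3 rose in hM4Di IP: the cell cycle inhibitor Cdkn1a by 0.79 ± 0.0987 (adjusted p = 0.0035, edgeR's quasi-likelihood test), the p53 regulator Mdm2 by 0.39 ± 0.0913 (adjusted p = 0.025) and the signal transducer Smad1 by 0.22 ± 0.0602 (adjusted p = 0.041). Trp53, at 0.01, Mdm4, at -0.20, and Lin28b, at -0.17, were not called. In IP against input, Cdkn1a rose by 2.50, 2.36 and 2.58 in the MPTP, SAPAP3 and R6/2 experiments, Trp53 by 0.45, 0.52 and 0.22, Mdm2 by 0.25, 0.42 and 0.15, and Smad1 by 0.30, 0.23 and 0.25. Mdm4 was lower, at -0.92, -1.09 and -1.41, as was Lin28b, at -1.34, -1.32 and -1.55. Most genes differed there: 83.7%, 80.2% and 80.3% of all genes tested were called in IP against input. In the same order, 40.7%, 40.3% and 39.3% were higher and 42.9%, 40.0% and 41.1% lower.

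Markers of cell types also moved between these IP groups. Slc1a2 fell by 0.44 ± 0.0493 in hM4Di IP (adjusted p = 0.003, edgeR's quasi-likelihood test), and of the 10 astrocyte markers 1 was higher and 1 lower. The summed astrocyte markers ranged over 16650 to 17870 CPM in hM4Di IP and 20078 to 23082 CPM in control cargo IP. Slc1a2 alone took most of each sum, at 10605 ± 441 CPM in hM4Di IP and 14541 ± 646 CPM in control cargo IP (SD, n = 4 each). All 6 oligodendrocyte markers rose, with a median of 0.80, and their sums were 4711 to 6757 CPM in hM4Di IP and 2634 to 3696 CPM in control cargo IP. Of 7 medium spiny neuron markers 6 fell, with sums of 1223 to 1302 CPM in hM4Di IP and 1497 to 2265 CPM in control cargo IP. No microglial marker of 10 was called, with sums of 57.1 to 65.1 CPM in hM4Di IP and 53.6 to 58.8 CPM in control cargo IP, and Cx3cr1 was at 0.05 (adjusted p = 0.848). No marker was at 0 in any group. Beside these counts, 9.06% of all genes tested were called higher in hM4Di IP and 5.63% lower. The part of these shifts in the Rpl22 result was not tested.

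Neither member passed the test with MPTP or in SAPAP3 knockout mice. With MPTP, Rpl22 was at -0.08 ± 0.135 in IP and 0.14 ± 0.123 in input relative to vehicle, and Rpl22l1 at 0.11 ± 0.155 and 0.04 ± 0.102. No gene passed edgeR's quasi-likelihood test in that experiment (0% of genes in IP and in input). There, 1692 genes in IP and 1289 in input had an unadjusted p under 0.05, and DESeq2 called 302 and 65. In knockout tissue, Rpl22 was at -0.34 ± 0.327 in IP and -0.46 ± 0.173 in input relative to wild type (adjusted p = 0.999 and 0.735, edgeR's quasi-likelihood test; 0.0263% and 0.00641% of genes called, in IP 0.00658% higher and 0.0197% lower). Without wild-type replicate 2, the highest of its group in both fractions, the IP value was 0.05 and the input value -0.28. Rpl22l1 was at -0.02 ± 0.174 in IP and 0.02 ± 0.122 in input. Differences between IP and input effects were -0.23 ± 0.203 for Rpl22 with MPTP and 0.12 ± 0.415 in knockout tissue, and neither passed. For those differences edgeR called 0 genes in either experiment (1266 and 203 genes at an unadjusted p under 0.05), and DESeq2 called 50 with MPTP and 1 in knockout tissue.

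Whether the level of Rpl22 followed the quality of the precipitate was examined across the 24 mice, on log2 CPM with the mean of each of the 6 conditions subtracted. In all 11 relations were computed, with two-sided permutation tests within conditions (100000 resamples) and Benjamini-Hochberg adjustment over the 11. Mice with more Rpl22 in IP had more Rpl22 in input: Pearson's r was 0.70 (permutation p = 0.00045, adjusted p = 0.00495) and Spearman's rho 0.70 (permutation p = 0.00046, adjusted p = 0.00506). Without wild-type replicate 2 and control cargo replicate 2, the mice farthest from the median, r was 0.56. Within experiments r was 0.66 in the MPTP experiment (exact permutation p = 0.115, n = 8), 0.71 in the SAPAP3 experiment (exact permutation p = 0.033, n = 8) and 0.92 in the R6/2 experiment (exact permutation p = 0.0087, n = 8). Each exact test ran over 576 pairings.

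No relation between Rpl22 and the purity of the IP passed. The difference of IP and input in Rpl22 against the same difference in Slc1a2 had r = 0.39 (permutation p = 0.111, adjusted p = 0.609) and rho = 0.42 (permutation p = 0.0875, adjusted p = 0.481). Without control cargo replicate 2 and knockout replicate 2 this r was 0.27, and within experiments it was 0.36 with MPTP, 0.44 with SAPAP3 and 0.45 with R6/2 (exact permutation p = 0.484, 0.318 and 0.691, n = 8 each). Both differences use the same pair of libraries, so they share any error of scaling. Against the depletion of Cx3cr1 in IP the Rpl22 difference had r = -0.19 (permutation p = 0.66, adjusted p = 0.789) and rho = -0.11. Rpl22 in IP had r = 0.15 with the Slc1a2 difference and -0.19 with the Cx3cr1 difference, and Rpl22 in input -0.25 and -0.08 (permutation p = 0.548, 0.634, 0.272 and 0.632, adjusted p = 0.789 each). In the pairs that share no library, Rpl22 in input had r = -0.22 with Slc1a2 in IP and 0.04 with Cx3cr1 in IP (adjusted p = 0.789 and 0.82, permutation tests). Rpl22l1 and Rpl22 had r = 0.13 in IP and -0.12 in input (adjusted p = 0.789 each, permutation tests). Within experiments no exact permutation p of these relations was under 0.0521 (n = 8), the value for Rpl22l1 with Rpl22 in IP of the R6/2 experiment (r = 0.78). With 24 mice a weak relation cannot be told from none.

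**Figure D4:**
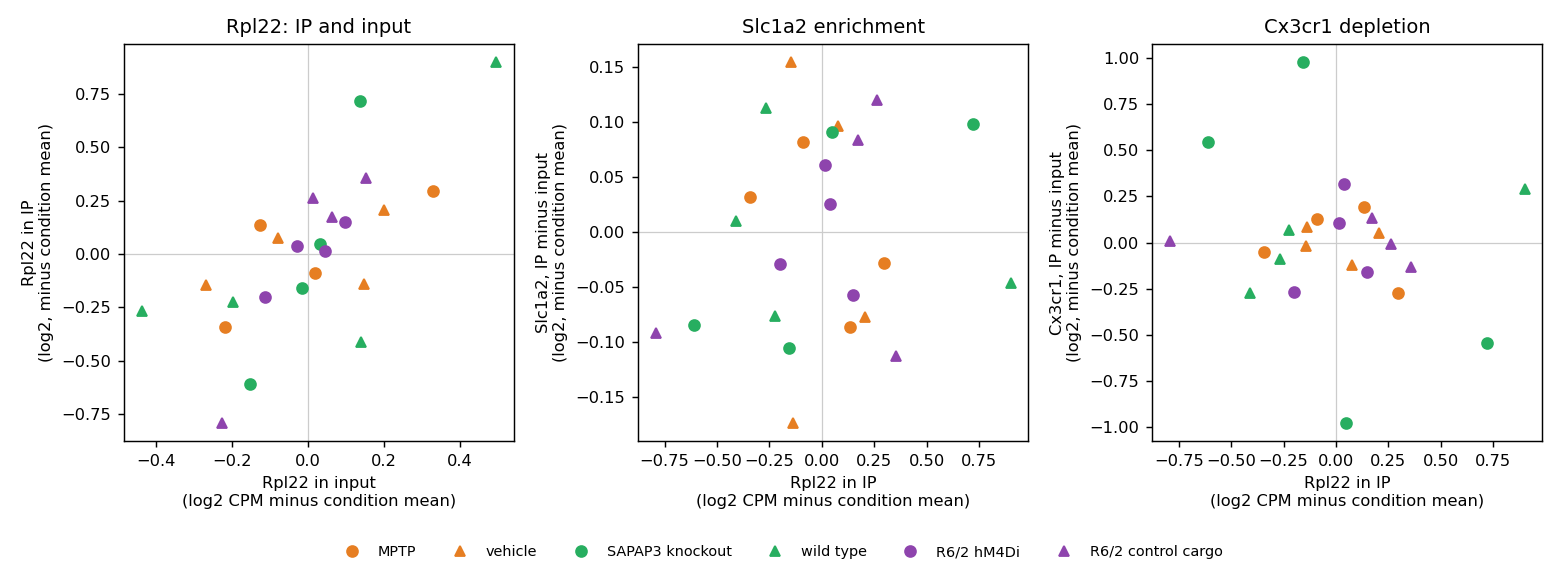
Rpl22 in IP against Rpl22 in input (left), Slc1a2 enrichment against Rpl22 in IP (middle) and Cx3cr1 depletion against Rpl22 in IP (right) for 24 mice, on the log2 scale after subtracting the condition mean; colours are experiments, circles perturbed and triangles control mice. Points rise together on the left (r = 0.70) and show no clear slope in the middle (r = 0.15) or on the right (r = -0.19).

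Mean values by condition placed these measures side by side. The IP minus input difference in Rpl22 averaged 2.20 ± 0.178 with MPTP and 2.43 ± 0.201 with vehicle, 2.79 ± 0.435 in knockout and 2.68 ± 0.407 in wild-type mice, and 1.58 ± 0.0725 with hM4Di and 2.21 ± 0.382 with the control cargo (log2, SD, n = 4 each). That of Slc1a2 averaged 3.14 with MPTP and 3.38 with vehicle, 2.07 in knockout and 2.04 in wild-type mice, and 2.29 with hM4Di and 2.55 with the control cargo. That of Cx3cr1 averaged -4.88 with MPTP and -5.14 with vehicle, -3.73 in knockout and -4.37 in wild-type mice, and -5.06 with hM4Di and -4.94 with the control cargo. Input levels enter these differences. In input Slc1a2 averaged 1882, 1922, 5080, 4555, 2171 and 2484 CPM in the same order of conditions. In IP it averaged 16560, 20189, 21481, 18844, 10605 and 14541 CPM, so the SAPAP3 experiment was not the lowest there. The order of the experiments by Rpl22 enrichment is not resolved between SAPAP3 and MPTP. Their difference did not pass without the block and was 0.04 with ribosomal protein scaling. Nor is it resolved between R6/2 and MPTP. That difference did not pass without the block, though it passed with the block and with ribosomal protein scaling. Knockout replicate 1 had the smallest depletion of Cx3cr1 of all mice (-2.75), with a Rpl22 difference of 2.65.

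The genes whose level over the 48 libraries was most like that of Rpl22, among 13289 candidates, were the retinal dehydrogenase gene Aldh1a1 (r = 0.95), the sulfotransferase gene Chst2 (0.95), Pantr1 (0.95), Chat (0.95), which encodes the enzyme that makes acetylcholine, and BC064078 (0.95). All 5 were higher in IP than input in each experiment, so this likeness includes the difference between the fractions. Chat is also a marker of cholinergic interneurons. In IP libraries alone r was 0.90 for Aldh1a1 and 0.87 for Chat, and in input libraries alone 0.83 and 0.88. These values within a fraction still include the differences between experiments and conditions. In IP, Aldh1a1 averaged 409 CPM with vehicle and 126 CPM with the control cargo, and Chat 151 and 59.2 CPM. Aldh1a1 also fell in hM4Di IP, by 0.71, as did Pantr1, by 0.60, while Chat (-0.16), Chst2 (-0.29) and BC064078 (-0.02) did not pass. With the mean of each of the 12 groups subtracted, other genes came first: Hmox1 (r = 0.83), which encodes heme oxygenase, Ddx21 (0.83), which encodes an RNA helicase with a role in ribosome biogenesis, Pqlc3 (0.71), Akr1b8 (0.69), which encodes an aldo-keto reductase, and Golm1 (0.69). Ddx21 had r = 0.94 in IP and 0.70 in input, and Hmox1 0.84 and 0.82. Without the mouse of wild-type replicate 2 the values were 0.80 for Ddx21 and 0.78 for Hmox1. These correlations are descriptions over libraries that share runs, mice and scaling.

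Rpl22l1 had other companions. Over the 48 libraries its level was most like that of Med28 (r = 0.97), a Mediator subunit gene, Rmrp (0.97), the RNA of an endoribonuclease, the phosphodiesterase gene Pde3b (0.96), Rps20 (0.96) and Rps21 (0.96). All 5 were lower in IP in each experiment, so this likeness also includes the difference between the fractions. In IP libraries alone r was 0.75 for Med28 and 0.74 for each of the others. In input libraries alone it was 0.86 for Med28, 0.49 for Rmrp, 0.43 for Pde3b, 0.65 for Rps20 and 0.70 for Rps21. Group means were not subtracted in these values, so they include the differences between experiments and conditions. After subtraction of group means the genes most like Rpl22l1 were Rps21 (0.85), the elongation factor gene Eef1a1 (0.80), Rps19 (0.80), Gnb2l1 (0.79), which encodes the ribosomal scaffold protein RACK1, and Rpl8 (0.78). For Rps21 r was 0.85 in IP alone and 0.85 in input alone.

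**Figure D5:**
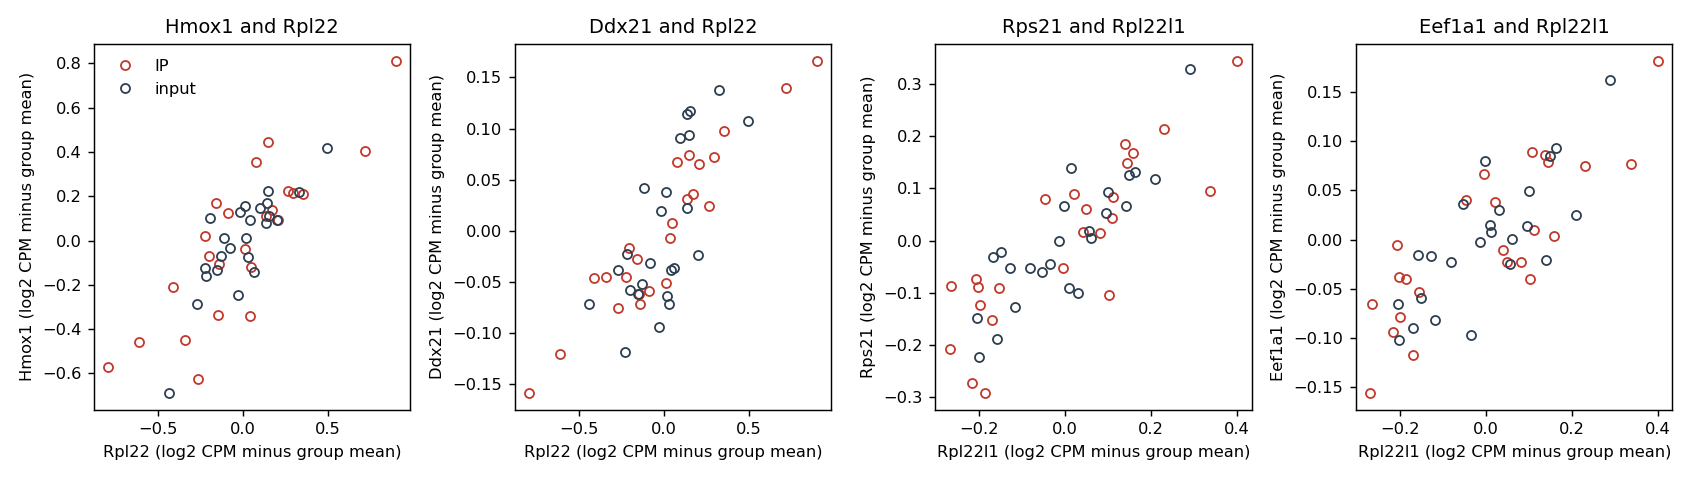
Log2 CPM after subtracting the group mean in 48 libraries, for Hmox1 and Ddx21 against Rpl22 and for Rps21 and Eef1a1 against Rpl22l1; red circles are IP and dark circles input libraries. Over all 48 libraries r is 0.83, 0.83, 0.85 and 0.80.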

How the data were processed

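STAR, HTSeq and the mm10 build are named per the submitters' processing notes; versions, gene annotation and the strand setting are not given in the sources used here. Per the labels, libraries were stranded and depleted of ribosomal RNA. The deposited counts are whole numbers of reads for 24060 symbols, with 4 rows of duplicated symbols kept apart. The deposited FPKM values were, as checked, each count divided by 1 gene length and the column total, and served only to compare levels between genes.

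The analysis used edgeR 4.0.16 in R 4.3.3, with filterByExpr by group (minimum count 10), TMM, quasi-likelihood F test, and Benjamini-Hochberg adjustment over all genes tested, with a threshold of 0.05. Log2 fold changes carry the SE that the F statistic implies. Both members passed the filter in every fit. Perturbed and control groups were compared within each fraction, IP with input over 16 libraries with condition in the model, and enrichment between experiments over 48. The main fits held no term for the mouse. The test was also run on simulated counts in which all libraries were independent. Such counts cannot check how fits without a mouse term treat IP and input of the same mouse. Alternatives were DESeq2 1.42.0, 4 other scalings, other filters, blocks, joint fits and leaving out replicates.

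IP and input were paired by the mouse named in the titles. MPTP replicate 2, whose titles name different animals, was paired by its replicate number. It was kept as 1 mouse in the counts of replicates, ratios, block fits and relations. Residual correlations within pairs were 0.050 to 0.327 in the MPTP experiment, 0.200 to 0.469 in the SAPAP3 experiment and 0.339 to 0.597 in the R6/2 experiment. The lowest, 0.050, was that of MPTP replicate 2. Within its experiment, the IP library correlated best with its paired input in 5 of 8 MPTP pairs. The same held in 7 of 8 pairs of the SAPAP3 experiment and 8 of 8 of the R6/2 experiment.

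Members, gene lists and tests were chosen with earlier results of these data known. Named genes were both members, Slc1a2, Cx3cr1, the 5 genes most correlated with each member by level and by deviation from group means (mean CPM of at least 1, no gene models), the ribosomal protein genes at the ends of the IP order, next in FPKM or called, and the listed paralogs and Rpl22-linked genes. Sequences and coordinates came from GENCODE M21; Biopython 1.88 aligned them. A result that the rule would name is not reported here.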

Additional observations from a re-analysis of the deposited data

Results flagged for a closer look

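In 36 groups of 4 libraries or mice checked for a value far from its group, 2 were found, and chance gives about 1 in 20. The gap of control cargo replicate 2, the lowest Rpl22 library in control cargo IP, took 0.841 of the group's range of log2 CPM. The gap of wild-type replicate 2, the highest in wild-type IP, took 0.856. Enrichment in IP over input differed between experiments for Rpl22l1, by 0.73 on the log2 scale between the SAPAP3 and MPTP experiments and by 0.53 between the R6/2 and MPTP experiments. For Rpl22 it differed by -0.88 between the R6/2 and SAPAP3 experiments. These values pool the perturbed and control mice of each experiment.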

How the results depend on the processing

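Depth limits Rpl22l1 more than Rpl22, at 99 to 607 reads a library, and with 4 libraries a group small differences cannot be resolved. Of the members' fold changes under other settings, 236 kept direction and call, 8 passed anew, 1 no longer passed and 7 changed sign. DESeq2 called Rpl22 in hM4Di input (-0.31) and gave an hM4Di IP minus input difference of -0.69, which passed. Scaling to the other ribosomal protein genes gave -0.81 for that difference, -0.89 for Rpl22 enrichment in R6/2 minus MPTP and -0.32 for Rpl22l1 in hM4Di IP, all passing. It gave 0.036 for Rpl22l1 enrichment in R6/2 minus MPTP, no longer passing, and -0.063 for Rpl22l1 in MPTP input. With the mouse as a replicate block, Rpl22 passed at -0.64 for the hM4Di IP minus input difference, 0.42 for SAPAP3 minus MPTP and -0.42 for R6/2 minus MPTP, and no other call of the members changed. Between perturbed and control groups of 1 fraction, where each mouse gave 1 library, the block was the replicate number, and it changed no call of the members. Same-numbered replicates of different conditions had residual correlations of -0.292 to 0.342. In the SAPAP3 experiment they were 0.25 and 0.27 for replicates 2 and 3 in IP and 0.34 for replicate 3 in input. With the replicate number as a block, Rpl22 in knockout IP was -0.32 ± 0.120, beside -0.34 ± 0.327 without it. It did not pass (adjusted p = 0.798, edgeR's quasi-likelihood test). Whether same-numbered replicates share more than a number was not tested. The other sign changes were of Rpl22l1 values near 0. In knockout input it was -0.0096 under upper-quartile scaling and -0.0085 without scaling factors. In hM4Di input it was -0.00071 under relative log expression, -0.017 with ribosomal protein scaling, -0.0021 without a filter and -0.00086 in DESeq2. With ribosomal protein scaling r was -0.13 for Rpl22 in IP with Slc1a2 enrichment, -0.14 for Rpl22 in input with Cx3cr1 in IP and -0.0046 for Rpl22l1 with Rpl22 in IP.

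Leaving out 1 replicate at a time, Rpl22 ranged from -0.18 to 0.025 in MPTP IP, -0.63 to 0.051 in knockout IP and -1.19 to -0.87 in hM4Di IP. Its IP minus input difference ranged from -0.12 to 0.35 in knockout mice and -0.82 to -0.62 with hM4Di. Rpl22l1 ranged from -0.042 to 0.093 in MPTP input, -0.11 to 0.12 in knockout IP, -0.044 to 0.13 in knockout input and -0.049 to 0.050 in hM4Di input. Its IP minus input difference ranged from -0.014 to 0.15 with MPTP and -0.13 to 0.14 in knockout mice. The r of Rpl22 in input ranged from -0.33 to 0.050 with Slc1a2 in IP and -0.13 to 0.11 with Cx3cr1 in IP, and that of Rpl22l1 with Rpl22 in IP from -0.22 to 0.28. Without control cargo replicate 2 the hM4Di IP minus input difference of Rpl22 was -0.82 and passed. The cause of these changes was not tested.

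Counts of genes called moved more. In hM4Di IP they were 2227, against 3474 in DESeq2, 4774 with ribosomal protein scaling, 3636 in a fit of 16 libraries and 892 to 2130 without 1 replicate. In MPTP IP they were 0, against 302 in DESeq2, 289 in the fit of 16 libraries and 0 to 65 without 1 replicate, and in MPTP input 0, against 65 in DESeq2 and 1 without a filter or with the replicate number as a block, and 0 to 2 without 1 replicate. In knockout IP they were 4, against 8 in DESeq2, 2 with the replicate number as a block and 0 to 3 without 1 replicate, and in knockout input 1, against 8 in DESeq2, 3 in the fit of 16 libraries and 0 to 1 without 1 replicate. In hM4Di input they were 3, against 53 in DESeq2, 5 without a filter and 6 with the replicate number as a block. The hM4Di IP minus input difference had 492, against 1159 in DESeq2, 1204 with ribosomal protein scaling, 2761 with the mouse as a block and 91 to 433 without 1 replicate. With ribosomal protein scaling R6/2 minus MPTP had 12470 against 5291 and SAPAP3 minus MPTP 10923 against 5638. That scaling put the median of all genes in IP against input at 1.13, 0.66 and 0.58 in the MPTP, SAPAP3 and R6/2 experiments, upper-quartile scaling at -0.16, -0.14 and -0.14, and no scaling factor at -0.25, -0.22 and -0.26. Under it Rpl22 was at 3.41, 3.45 and 2.52 and Rpl22l1 at -0.80, -0.51 and -0.77.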
